A study of Mus musculus with 15 samples.

Results

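The heat-shock chaperone and polyubiquitin genes described here are *Hspa1a*, *Hspa1b*, *Hspa8*, *Hsph1*, *Dnajb1*, *Hsp90aa1*, *Hspd1*, *Bag3* and *Ubb*, 9 of the 78317 gene identifiers in the count table. They were picked by name, and the choice already pointed to CaP replicate 1 as a library that might stand apart, so values of the CaP libraries had been seen when the genes were chosen. Differences that involve CaP are therefore given for these 9 genes as values with their error and without a test. The other comparisons carry an adjusted p over all genes tested, and they too concern libraries whose results were known.

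The RNA came from MH-S cells, an SV-40-transformed alveolar macrophage line of the mouse, so all libraries come from 1 cell line and, by the study's methods, 1 cell passage. The 5 groups hold 3 wells each, and all wells were harvested after 24 h. M0 received medium alone. M1 received LPS at 1 µg/mL with IFN-γ at 20 ng/mL, the classical activating stimulus, and M2 received IL-4 at 20 ng/mL, the alternative one. CaP and SiO2 received microrods at 0.1 mg/mL, which were built from calcium phosphate or silica nanoparticles held together with alginate and coated with layers of protamine and carboxymethyl chitosan. Each rod well had its own rod batch. Smart-seq2 libraries, in which polyadenylated RNA is copied from its tail and the whole cDNA is amplified, were sequenced as pairs of 75-base reads.

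Molecular chaperones keep proteins folded. HSP70 proteins bind exposed hydrophobic stretches of a client and release them in cycles driven by ATP. J-domain proteins such as DNAJB1 bring the client and start the cycle, and HSP110 and BAG proteins restart it by exchanging the nucleotide. HSP90 takes over partly folded kinases and receptors, HSP60 encloses proteins inside mitochondria, and ubiquitin marks proteins that are to be degraded. Under heat, oxidants, heavy metals or proteasome block, the factor HSF1 forms trimers on heat-shock elements, which are inverted repeats of GAA and TTC, and raises this set of genes together. *Hspa8* and *Hsp90ab1* are the family members that resting cells use, whereas *Hspa1a* and *Hspa1b* are usually near silent until stress. Macrophages that take up particles load their lysosomes with foreign material, which is one setting in which a response of this kind can be looked for.

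Library totals ran from 8459643 to 68750050 counts, so 1 count equalled between 0.0143 and 0.132 CPM (counts relative to the TMM-scaled library size). The general macrophage markers *Ptprc*, *Cd68*, *Csf1r*, *Lyz2*, *Spi1*, *Adgre1* and *Fcgr3* were above 3 counts in all 15 libraries. The alveolar macrophage markers *Marco* and *Siglecf* were at 3 counts or fewer in 10 and 13 of them. Summed over 10 macrophage markers the level was 2630 to 4500 CPM. Summed levels of the 6 epithelial, 5 fibroblast and 5 lymphocyte markers did not pass 0.232 CPM in any library. In bulk RNA, fewer cells that express a gene and less RNA per cell cannot be told apart.

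Of the 9 genes, 7 passed the filter on low counts and were among the 16654 genes tested, and *Hspa1a* and *Hspa1b* did not. Per kilobase of transcript, the mean level over the 15 libraries was 12600 CPM for *Ubb*, 918 for *Hspa8*, 314 for *Hspd1*, 272 for *Hsp90aa1*, 16.8 for *Dnajb1*, 13 for *Hsph1*, 3.64 for *Bag3*, 0.0894 for *Hspa1a* and 0.0867 for *Hspa1b*. *Hspa1a* and *Hspa1b* were the lowest of the 9 in every group. The spread over the libraries also differed between genes. The highest library was 1.41 times the lowest for *Hspa8*, 1.55 times for *Hspd1*, 1.6 times for *Hsp90aa1*, 1.82 times for *Dnajb1*, 2.47 times for *Hsph1*, 2.52 times for *Ubb* and 3.24 times for *Bag3*.

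**Figure D1:**
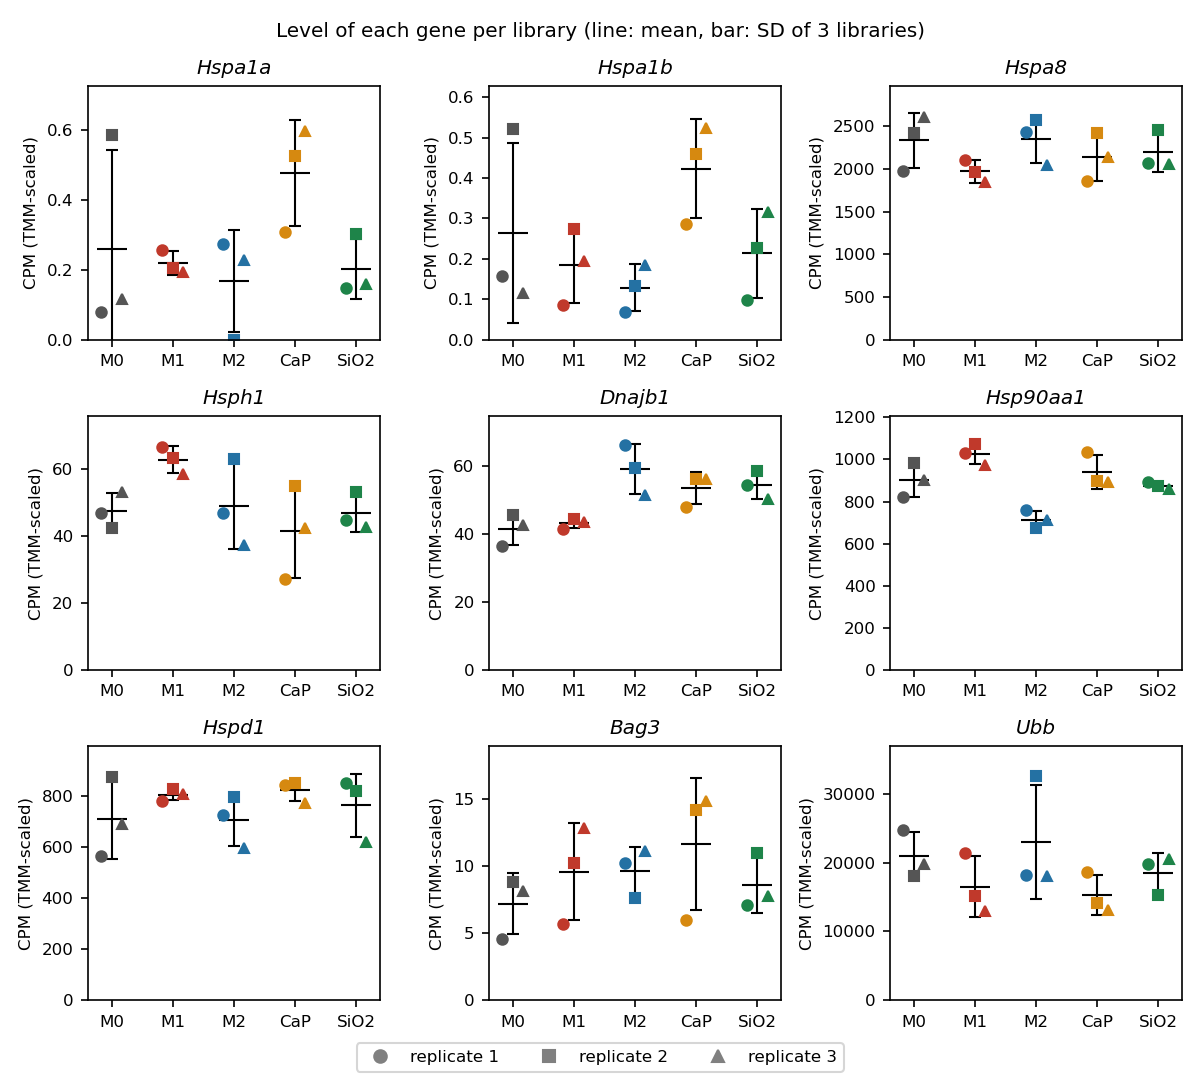
Level of each of the 9 genes in each library, in CPM on axes that start at 0, with 1 point per library (replicates 1, 2 and 3 as circle, square and triangle), a horizontal line at the mean and a bar for the SD of the 3 libraries of a group (the bar of *Hspa1a* in M0 is cut at 0). *Dnajb1* was above all M0 libraries in M2, CaP and SiO2, *Hsp90aa1* was lowest in M2, and CaP replicate 1 was the lowest CaP library for 6 genes.

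The inducible HSP70 genes *Hspa1a* and *Hspa1b* were almost silent, in the rod-exposed cells too. *Hspa1a* had 3, 9 and 1 counts in M0, 3, 3 and 2 in M1, 4, 0 and 16 in M2, 15, 8 and 24 in CaP, and 3, 4 and 4 in SiO2, in the order of the replicate numbers. *Hspa1b* had 6, 8 and 1 counts in M0, 1, 4 and 2 in M1, 1, 1 and 13 in M2, 14, 7 and 21 in CaP, and 2, 3 and 8 in SiO2. Over all libraries together the genes drew 99 and 92 counts, while *Hspa8* drew 744591. The count of 0 for *Hspa1a* in M2 replicate 2, a library of 8594947 counts, allows a level of up to 0.395 CPM. Floors and intervals here cover counting error only, since reads amplified without molecular identifiers are not independent molecules.

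*Hspa1a* and *Hspa1b* are near-identical copies of each other. Their transcripts match over 2201 bases at 99.2% identity, and 60.1% of all 75-base windows of *Hspa1a* and 55.8% of those of *Hspa1b* occur unchanged in another gene, so the split of reads between them is uncertain and their counts were also summed. Their promoters are as close. The 250 bases before the RefSeq start site (build GRCm38.p6, minus strand) are printed because they differ at 3 bases (98.8% identical), so the copies share nearly the whole control region next to their start. Capitals mark the heat-shock element letters GAANNTTC, which begin 104 bases before the start site in both.
Hspa1a (chr17:34972157-34972406, -): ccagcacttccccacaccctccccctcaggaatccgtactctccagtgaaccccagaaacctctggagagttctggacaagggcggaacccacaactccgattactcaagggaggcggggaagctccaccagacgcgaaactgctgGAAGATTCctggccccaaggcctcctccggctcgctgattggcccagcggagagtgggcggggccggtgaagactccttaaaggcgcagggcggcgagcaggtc
Hspa1b (chr17:34959239-34959488, -): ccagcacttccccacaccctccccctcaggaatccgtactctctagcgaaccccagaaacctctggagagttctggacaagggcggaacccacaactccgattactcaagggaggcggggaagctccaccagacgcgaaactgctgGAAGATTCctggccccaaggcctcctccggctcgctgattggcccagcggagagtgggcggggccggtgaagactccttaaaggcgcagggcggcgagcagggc

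Summed over both copies, the level was 0.525 ± 0.503 CPM in M0, 0.404 ± 0.0686 in M1, 0.296 ± 0.147 in M2, 0.901 ± 0.274 in CaP and 0.417 ± 0.151 in SiO2 (SD, n = 3). The 3 CaP libraries had 0.595, 0.986 and 1.12 CPM. The 3 SiO2 libraries had 0.245, 0.529 and 0.475 CPM, from 5, 7 and 12 counts. These groups did not overlap, which held for *Hspa1a* alone. *Hspa1b* alone overlapped, with 0.287 CPM in CaP replicate 1 and 0.317 CPM in SiO2 replicate 3. Of all genes tested, 3.43% were higher in CaP without overlap, but neither copy passed the filter that those genes passed. The log2 difference of CaP from SiO2 was 1.09 (SE 0.49), and that of CaP from M0 was 0.86 (SE 0.49, 95% interval -0.09 to 1.81). The M0 libraries had 0.237, 1.11 and 0.232 CPM. M0 replicate 2 alone was as high as the CaP libraries, and without it the difference of CaP from M0 was 1.87, whereas without M0 replicate 1 it was 0.17. Against M0, the sum did not pass the test in M1 (log2 fold change -0.23, SE 0.66, adjusted p = 0.841 from edgeR), M2 (-0.39, SE 0.57, adjusted p = 0.796) or SiO2 (-0.23, SE 0.59, adjusted p = 0.971), and all 3 turned positive without M0 replicate 2, at 0.78, 0.62 and 0.78.

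*Hspa8*, the constitutive HSP70 protein of the cytosol, was the most abundant HSP70 gene. It had 1975, 2425 and 2605 CPM in M0, 2108, 1958 and 1842 in M1, 2434, 2570 and 2042 in M2, 1860, 2418 and 2134 in CaP, and 2074, 2460 and 2053 in SiO2. Every group overlapped every other one. The largest difference from M0 among the tested ones was that of M1 (log2 fold change -0.25, SE 0.15, adjusted p = 0.326 from edgeR).

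*Hspa8* shares more sequence with other genes than any of the other 8. Of its 75-base windows, 68.5% occur unchanged elsewhere, mainly in processed pseudogenes, which are intron-free copies of its transcript. The copy *Gm15459* matches it over 1941 bases with 5 mismatches (99.7% identity). The stretch around a mismatch is printed to show how little separates them, with the base that differs in capitals (transcript positions 454 to 514 of *Hspa8* and 84 to 144 of *Gm15459*, mouse GENCODE transcripts on GRCm38).
Hspa8: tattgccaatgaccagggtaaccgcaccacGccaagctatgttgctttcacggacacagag
Gm15459: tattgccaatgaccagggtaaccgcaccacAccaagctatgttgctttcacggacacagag

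The 5 *Hspa8* pseudogenes in the count table (*Gm15459*, *Gm8355*, *Gm6210*, *Gm7232* and *Gm8337*) together held 118% of the counts of *Hspa8* itself. The share of these counts that stood at *Hspa8* ran from 39.2% to 58.2%. It was lowest in the deepest library, M2 replicate 3 (68750050 counts), followed by the libraries ranked 2, 3 and 4 in depth, and highest in the 2 shallowest, M0 replicate 3 (8459643 counts) and M2 replicate 2 (8594947 counts). The part of depth in this share was not tested. Gene and copies summed, the M1 libraries had 3980, 3770 and 3440 CPM and the M0 libraries 4480, 4890 and 4470 CPM. All 3 M1 libraries were then below all 12 others, the lowest of which had 4280 CPM, while 12% of all genes tested were lower in M1 than in M0 without overlap. The log2 fold change of M1 was -0.31 (SE 0.12, adjusted p = 0.102 from edgeR), which did not pass the test.

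**Figure D2:**
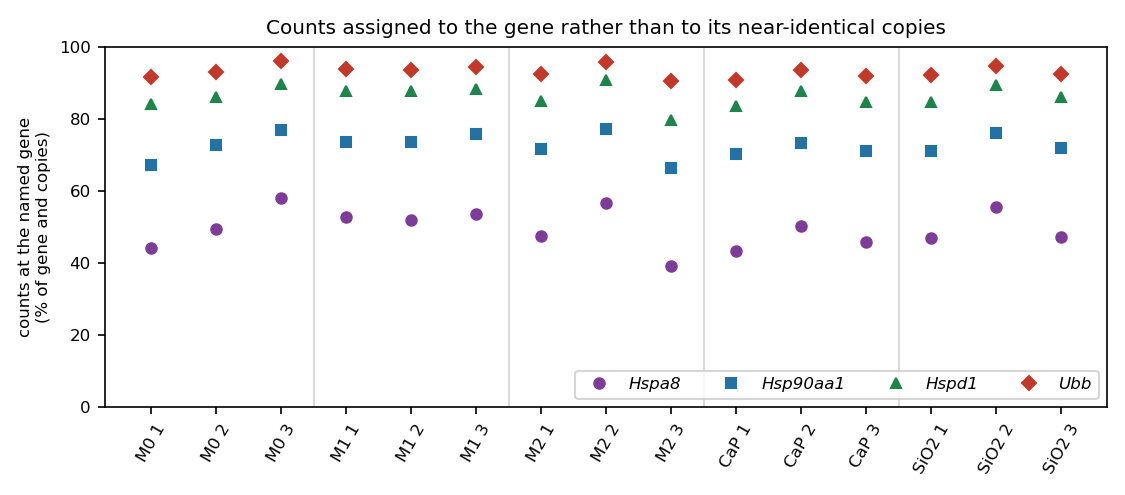
Share of counts assigned to each gene, in percent of the counts of the gene and its near-identical copies together, with 1 point per library and vertical lines between groups. *Hspa8* kept 39.2% to 58.2% of its counts, *Hsp90aa1* 66.5% to 77.3%, *Hspd1* 79.8% to 90.8% and *Ubb* 90.5% to 96%, and all 4 were lowest in M2 replicate 3.

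The co-chaperones of the HSP70 cycle, *Dnajb1*, *Hsph1* and *Bag3*, share none of their 75-base windows with another gene, so their counts do not depend on a split of reads. *Dnajb1*, the J-domain partner of HSP70, had 36.4, 45.7 and 42.5 CPM in M0 and 41.6, 44.4 and 43.4 in M1. It had 66.2, 59.5 and 51.6 CPM in M2, 48.1, 56.1 and 56.3 in CaP and 54.5, 58.5 and 50.3 in SiO2. The 5 groups thus fell into a lower set, M0 and M1, and a higher set, M2, SiO2 and CaP, with overlap inside each set and none between them. In order, the group means were 59.1 ± 7.31 CPM in M2, 54.4 ± 4.11 in SiO2, 53.5 ± 4.68 in CaP, 43.2 ± 1.43 in M1 and 41.5 ± 4.72 in M0 (SD, n = 3).

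None of the differences of *Dnajb1* from M0 tested here passed the edgeR threshold. The log2 fold change against M0 was 0.51 in M2 (SE 0.15, adjusted p = 0.0754 from edgeR), 0.39 in SiO2 (SE 0.15, adjusted p = 0.478), 0.06 in M1 (SE 0.15, adjusted p = 0.819) and 0.37 in CaP (SE 0.15, 95% interval 0.08 to 0.66). Higher values than in M0 without overlap were seen for 7.03% of all genes tested in M2, 9.1% in SiO2 and 7.33% in CaP. DESeq2 called *Dnajb1* in M2 (log2 fold change 0.51, adjusted p = 0.00365), a tool by which 5.97% of all genes were called there. The 3 comparisons share the M0 libraries, of which replicate 1 was the lowest, and without it the differences were 0.40 in M2, 0.29 in SiO2 and 0.25 in CaP.

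*Hsph1* encodes HSP110, which exchanges the nucleotide of HSP70. It had 46.9, 42.5 and 53.3 CPM in M0, 66.6, 63.4 and 58.5 in M1, 46.9, 62.9 and 37.4 in M2, 27.0, 54.9 and 42.4 in CaP, and 44.7, 53.3 and 42.6 in SiO2. M1 was above M0, CaP and SiO2 without overlap (62.9 ± 4.09 against 47.5 ± 5.43 CPM in M0), as were 20.2% of all genes tested in M1 against M0, and it overlapped M2. The log2 fold change of M1 was 0.41 (SE 0.24, adjusted p = 0.301 from edgeR) and did not pass the test. The lowest of all 15 libraries was CaP replicate 1. With that library the difference of CaP from M0 was -0.20 (SE 0.24), and without it 0.01.

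*Bag3*, which links HSP70 to autophagy and to small heat-shock proteins, was the scarcest of the tested genes. It had 4.58, 8.85 and 8.11 CPM in M0, 5.67, 10.3 and 12.8 in M1, 10.2, 7.63 and 11.1 in M2, 5.97, 14.2 and 14.8 in CaP, and 7.10, 11 and 7.73 in SiO2. The group means ran from 7.18 ± 2.28 CPM in M0 to 11.7 ± 4.94 in CaP (SD, n = 3), and all groups overlapped. CaP replicates 2 and 3 were the highest of the 15 libraries, whereas CaP replicate 1 was within the M0 range. The log2 difference of CaP from M0 was 0.72 (SE 0.38, 95% interval -0.02 to 1.47), 1.04 without CaP replicate 1 and 0.42 without M0 replicate 1. Against M0 the log2 fold change was 0.45 in M1 (SE 0.39, adjusted p = 0.481 from edgeR), 0.49 in M2 (SE 0.39, adjusted p = 0.58) and 0.29 in SiO2 (SE 0.39, adjusted p = 0.922).

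*Hsp90aa1*, the stress-inducible HSP90 of the cytosol, was lowest in M2. It had 821, 985 and 902 CPM in M0, 1031, 1073 and 975 in M1, 757, 672 and 710 in M2, 1033, 898 and 893 in CaP, and 890, 875 and 859 in SiO2. All 3 M2 libraries were below all 12 others. The group means were 1030 ± 49.7 CPM in M1, 941 ± 79.4 in CaP, 903 ± 81.9 in M0, 875 ± 15.7 in SiO2 and 713 ± 42.7 in M2 (SD, n = 3). Neighbours in this order overlapped, except SiO2 and M2. M2 was lower than M0 by a log2 fold change of -0.34 (SE 0.12, adjusted p = 0.153 from edgeR), and 8.2% of all genes tested were lower there without overlap. CaP was above SiO2 without overlap, with a log2 difference of 0.11 (SE 0.12), and 0.02 without CaP replicate 1.

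The reads of *Hsp90aa1* are shared with 3 pseudogenes (*Gm12346*, *Gm5844* and *Gm5511*), which occupy 53.1% of its 75-base windows together. With these copies added, M2 had 998 ± 111 CPM and M0 1250 ± 92.9 CPM, a log2 fold change of -0.32 (SE 0.13, adjusted p = 0.216 from edgeR). The partner gene *Hsp90ab1*, which resting cells use, had 2080 CPM on average. Per kilobase its mean level was 827 CPM, against 272 for *Hsp90aa1*.

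*Hspd1* encodes HSP60, the chaperonin of the mitochondrial matrix. It had 563, 873 and 689 CPM in M0, 780, 827 and 806 in M1, 724, 794 and 595 in M2, 843, 850 and 771 in CaP, and 848, 818 and 620 in SiO2. All groups overlapped, and the M0 libraries spanned the range of the whole series. The log2 fold change against M0 was 0.18 in M1 (SE 0.18, adjusted p = 0.523 from edgeR), -0.01 in M2 (SE 0.18, adjusted p = 0.988), 0.11 in SiO2 (SE 0.18, adjusted p = 0.946) and 0.21 in CaP (SE 0.18, 95% interval -0.13 to 0.56). Its pseudogene *Hspd1-ps3* took 46197 counts next to 257188 at *Hspd1*. *Hspe1*, whose product HSP10 caps HSP60, did not pass the test in M1 either (log2 fold change 0.19, SE 0.19, adjusted p = 0.553 from edgeR).

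*Ubb* encodes a chain of ubiquitin units in tandem and supplies ubiquitin under stress. By counts it ranked 1 in CaP replicate 1, 3 in M1 replicate 2, 4 in M1 replicate 3 and 2 in the other libraries, and it took 1.31% to 2.88% of all counts. The share was 2.4%, 1.79% and 2.03% in M0, 2.07%, 1.49% and 1.31% in M1, 1.85%, 2.88% and 1.84% in M2, 1.79%, 1.47% and 1.4% in CaP, and 2%, 1.6% and 2.07% in SiO2. Counting error was small beside this spread, with a 95% Wilson interval of 2.868% to 2.891% for the highest share and 1.307% to 1.321% for the lowest.

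In CPM, *Ubb* had 23000 ± 8300 in M2, 20900 ± 3500 in M0, 18500 ± 2820 in SiO2, 16500 ± 4440 in M1 and 15300 ± 2920 in CaP (SD, n = 3), and all groups overlapped. M2 replicate 2 stood at 32570 CPM while its partners had 18260 and 18140 CPM. The log2 fold change against M0 was -0.34 in M1 (SE 0.26, adjusted p = 0.416 from edgeR), 0.14 in M2 (SE 0.26, adjusted p = 0.849), -0.17 in SiO2 (SE 0.26, adjusted p = 0.936) and -0.45 in CaP (SE 0.26, 95% interval -0.96 to 0.05). Without M2 replicate 2 the value of M2 was -0.20.

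Counted over the 7 tested genes, edgeR called 0 in M1, M2 and SiO2 against M0, where a call needed an adjusted p under 0.05 together with a log2 fold change beyond 0.5 in either direction. The share of all genes called in either direction was 14.1% in M1, 4.13% in M2 and 0.264% in SiO2. At an unadjusted p below 0.05 there were 0 of the 7 in M1 (27.7% of all genes), 2 in M2 (*Dnajb1* and *Hsp90aa1*, 17.2% of all genes) and 1 in SiO2 (*Dnajb1*, 8.17% of all genes). DESeq2 called 1 in M2 and 0 in M1 and SiO2, in which it called 16.8% and 0.781% of all genes. The CaP libraries were left out of these counts, since values of theirs were known when the genes were chosen.

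The direction was mixed as well. The median log2 fold change of the 7 genes was 0.18 in M1, 0.04 in M2, -0.02 in SiO2 and 0.06 in CaP against M0 and -0.03 in CaP against SiO2, and that of all genes tested was -0.01, 0.07, -0.02, 0.06 and 0.03. In CaP against M0, 4 of the 7 were positive (55.3% of all genes) and 3 negative, from -0.45 for *Ubb* to 0.72 for *Bag3*. The precision differed between genes, with an SE from 0.12 for *Hsp90aa1* to 0.39 for *Bag3*, so a log2 fold change of 1 or -1 lies outside the 95% interval for *Hspa8*, *Hsph1*, *Dnajb1*, *Hsp90aa1*, *Hspd1* and *Ubb* in M1, M2 and SiO2, whereas a value of 1 lies inside it for *Bag3*.

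**Figure D3:**
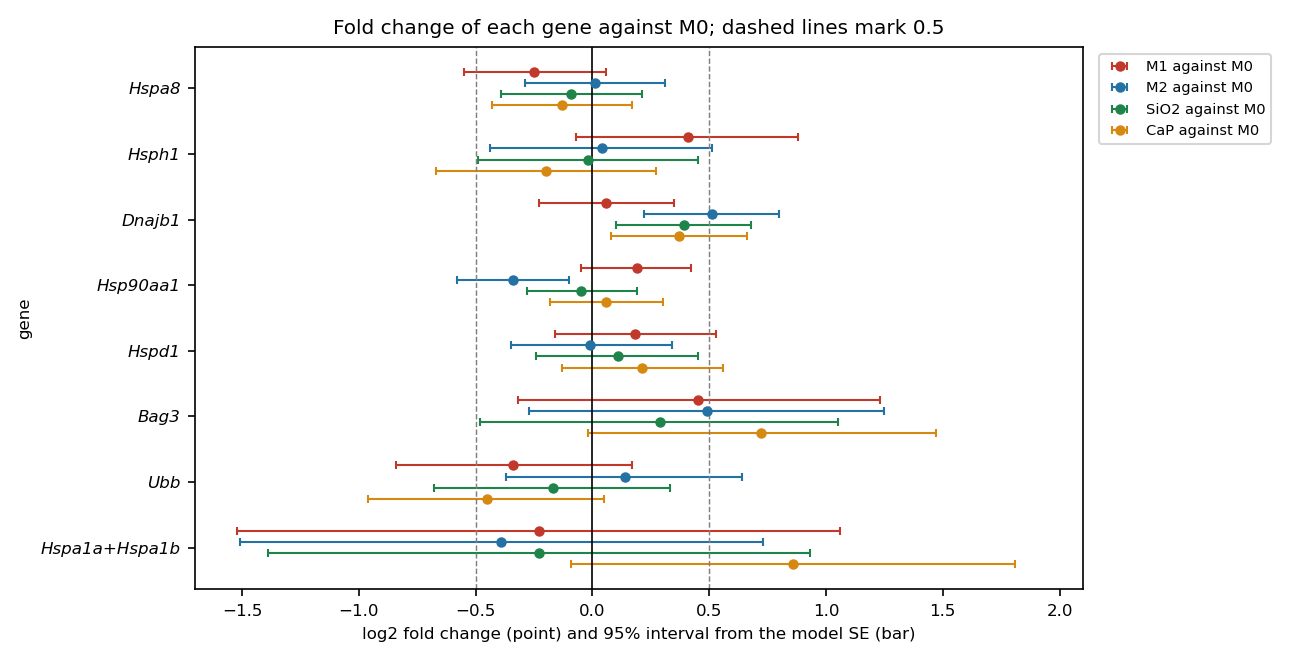
Log2 fold change against M0 of the 7 tested genes and of the summed *Hspa1a* and *Hspa1b*, with a point for the estimate and a bar for its 95% interval from the model, coloured by group, and dashed lines at the call threshold of 0.5. The intervals of *Dnajb1* lie above 0 in M2 and SiO2 and that of *Hsp90aa1* below 0 in M2, and the summed pair has the widest intervals.

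CaP replicate 1 was compared with the other 2 CaP libraries, and each library likewise within its group, as a difference in log2 CPM. In CaP replicate 1, *Bag3* was lower by -1.27 and *Hsph1* by -0.83, *Hspa8* by -0.29 and *Dnajb1* by -0.22, while *Ubb* was higher by 0.45, *Hsp90aa1* by 0.21 and *Hspd1* by 0.06. Of all genes tested in that library, 33.1% deviated lower than *Hspa8*, 36.4% lower than *Dnajb1* and 52.8% lower than *Hspd1*, so these genes were unremarkable there. M0 replicate 1 also had *Bag3* (-0.87), *Hspa8* (-0.35) and *Dnajb1* (-0.28) low and *Ubb* high (0.39), but with *Hspd1* (-0.46) and *Hsp90aa1* (-0.20) low. The mean absolute deviation of the 7 genes was 0.48 in CaP replicate 1, the highest of the 15 libraries, against 0.56 for all genes tested in that library. The choice of the genes already pointed to this library, so its rank is only a description.

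A deviation of more than 2-fold occurred in 2 cases over the 7 genes and 15 libraries, *Bag3* in CaP replicate 1 and *Bag3* in M1 replicate 1 (-1). The next ones were *Bag3* in M0 replicate 1 (-0.87), *Ubb* in M2 replicate 2 (0.84) and *Hsph1* in CaP replicate 1 (-0.83). In CaP replicate 1, 7.64% of all genes tested were lower by more than 2-fold and 6.51% higher, and in M1 replicate 1 5.45% were lower. Of all genes tested, 3.5% deviated lower than *Bag3* in CaP replicate 1. Replicate 1 was also the lowest library for *Bag3* in M0, M1 and SiO2 but not in M2, although the labels tie the number to nothing that the groups share. CaP replicate 1 was the deepest CaP library (50729211 counts) and held 291 counts of *Bag3*, where its partners had 216 and 595. For *Hsph1* it held 1318 counts, where they had 835 and 1700. For both genes its count was thus between those of its partners.

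**Figure D4:**
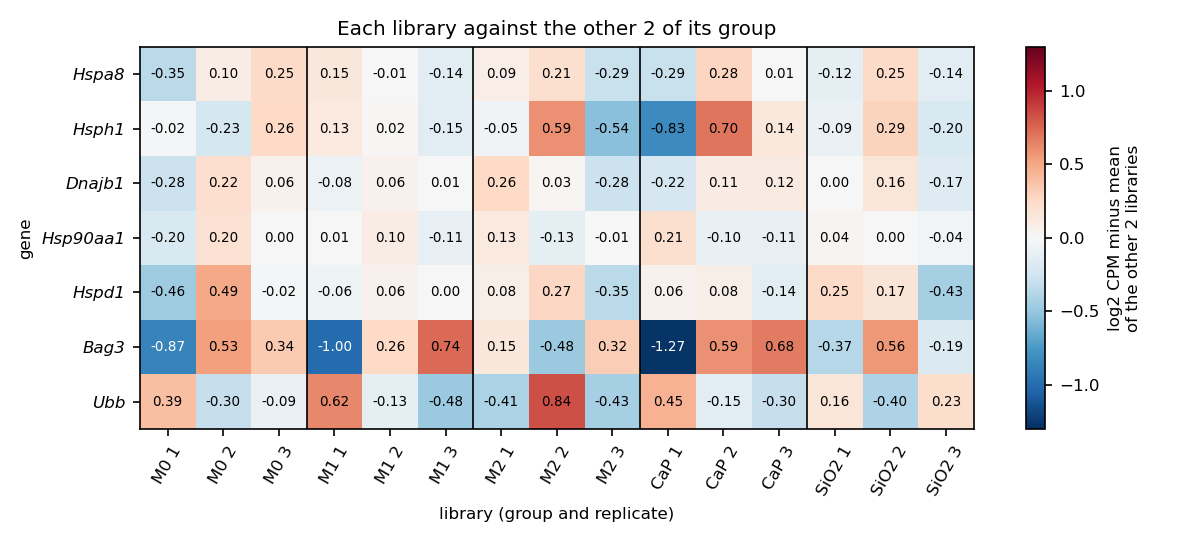
Difference in log2 CPM between each library (columns) and the mean of the other 2 libraries of its group, for the 7 tested genes (rows), with blue for lower and red for higher and black lines between groups. *Bag3* shows the deepest blue in CaP replicate 1 (-1.27), where *Hsph1* is also low (-0.83), and *Ubb* the strongest red in M2 replicate 2 (0.84).

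Heat-shock element letters were found in some of the promoters. The letters GAANNTTC or TTCNNGAA, which read the same on both strands and can overlap each other, were searched in the 250 bases before each RefSeq start site. They occur in 14.5% of 27025 genes and, of the 7 genes with a window, in 4, namely *Hspa1a*, *Hspa1b*, *Hsph1* and *Hspd1*. The longer form GAANNTTCNNGAA or TTCNNGAANNTTC occurs in 0.514% of genes and was found only at *Hspd1* among the 7. No match was found in the windows of *Dnajb1*, *Bag3* and *Ubb*. Only exact letters within these 250 bases were searched, so this does not show that an element is absent. The matches of *Hspd1* lie before 1 of its RefSeq start sites and not before the other, and *Hspa8* and *Hsp90aa1* had no window to search. The *Hsph1* and *Hspd1* matches are printed with 4 flanking bases and in capitals, to be read beside those of *Hspa1a* and *Hspa1b* above (GRCm38.p6, minus strand).
Hsph1 (chr5:149636358-149636373, -): atctTTCTCGAAggct
Hspd1 (chr1:55088055-55088080, -): ggccTTCCGGAAGGTTCTAGAAcgga

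The wider chaperone and ubiquitin system, 71 further genes listed by role of which 63 were tested, had 4 calls in M1, 1 in M2 and 0 in the other comparisons. In M1 edgeR called 3 higher and 1 lower (9.7% and 4.37% of all genes). *Hspa4l*, an HSP110 protein, rose from 5.06 ± 0.766 to 9.81 ± 0.585 CPM (log2 fold change 0.92, SE 0.20, adjusted p = 0.00634), and *Hspa12a*, a distant HSP70 relative, from 0.706 ± 0.156 to 1.85 ± 0.206 CPM (1.51, SE 0.40, adjusted p = 0.0224). *Dnajb2*, a J-domain protein that passes clients to the proteasome, rose from 4.37 ± 1.58 to 9.83 ± 2.24 CPM (1.16, SE 0.33, adjusted p = 0.0315). *Dnajc7*, a J-domain protein that works between HSP70 and HSP90, fell from 67.3 ± 15.3 to 43.7 ± 3.59 CPM (-0.62, SE 0.19, adjusted p = 0.048). *Hspa4l* was called in all 15 fits that left out 1 library, *Hspa12a* in 12 (not without M0 replicate 1 or M1 replicate 1 or 2), *Dnajb2* in 11 (not without M0 replicate 1 or 3 or M1 replicate 2 or 3) and *Dnajc7* in 5.

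The 8 subunits of the cytosolic chaperonin CCT, which folds actin and tubulin, all had positive log2 fold changes in M1 (49.6% of all genes), from 0.12 to 0.43 with a median of 0.24, and none passed the test. The mitochondrial chaperones and proteases had a median of 0.22 in M1 (7 of 10 positive, none called). The 63 genes together had a median of 0.12 in M1, where that of all genes was -0.01. Of the 6 genes on the small heat-shock protein list, not all of which belong to that family, 2 were tested. *Hspb1*, the family member most often used as a stress marker, had 0 counts in all M0, M1, M2 and CaP libraries. This allows up to 3 counts in each. In SiO2 *Hspb1* had 0.0295 ± 0.026 CPM (SD, n = 3), below the level that 3 counts give in any SiO2 library.

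In M2 edgeR called 1 of the 63 (2.13% of all genes were called lower), *Dnajb4*, a J-domain protein close to DNAJB1, which fell from 9.06 ± 1.04 to 5.29 ± 0.401 CPM (log2 fold change -0.76, SE 0.19, adjusted p = 0.0353), in the opposite direction to the value of *Dnajb1*. It was called in 7 of the 15 fits without 1 library, and not without M0 replicate 1 or 3, M1 replicate 2, M2 replicate 1 or 3 or any of the SiO2 libraries. Of the 10 J-domain genes on the list, 1 had a positive value in M2 (56.2% of all genes). With SiO2, with CaP and between the rod types edgeR called 0 of the 63 (0.264%, 0.654% and 0.018% of all genes), and an unadjusted p under 0.05 was seen for 3, 8 and 1 of them (8.17%, 15.8% and 1.66% of all genes). DESeq2 called 0 with SiO2 and between the rod types (0.781% and 0.102% of all genes) and 1 with CaP (2.77% of all genes). That gene was *Dnajb2*, with 10.7 ± 3.5 CPM in CaP and 4.37 ± 1.58 in M0 (log2 fold change 1.28, SE 0.32, adjusted p = 0.091 from edgeR and 0.00997 from DESeq2). Without CaP replicate 1 edgeR also called it (1.52, adjusted p = 0.0401). *Dnajb2* was not particular to CaP, since its mean was above that of M0 in M1 as given above, in M2 (7.58 ± 2.02 CPM, 0.83, SE 0.33, adjusted p = 0.202 from edgeR) and in SiO2 (7.43 ± 1.29 CPM, 0.75, SE 0.33, adjusted p = 0.566). All these comparisons share the M0 libraries. CaP differed from SiO2 by 0.53 (SE 0.30), which was not called.

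Chaperones of the endoplasmic reticulum that answer to the unfolded protein response were listed separately and kept apart from these counts. Of 13 genes edgeR called 2 in M1, *Sdf2l1* (434 ± 68.8 against 192 ± 34.3 CPM, log2 fold change 1.18, SE 0.16, adjusted p = 0.000236) and *Dnajb11* (0.69, SE 0.20, adjusted p = 0.0375), both higher. Of all genes tested, 14.1% were called in M1, so the number of calls on this list was not unusual. In M2 edgeR called *Sdf2l1* (326 ± 21.4 CPM, 0.76, SE 0.16, adjusted p = 0.015), where 4.13% of all genes were called. With SiO2 and CaP it called 0 (0.264% and 0.654% of all genes). At an unadjusted p below 0.05 there were 1 with SiO2 and 2 with CaP (8.17% and 15.8% of all genes). SDF2L1 and DNAJB11 are partners of the HSP70 protein BiP, whose gene *Hspa5* had 558 ± 25.6 CPM in M1 and 507 ± 77 in M0 (0.14, SE 0.19, adjusted p = 0.653).

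**Figure D5:**
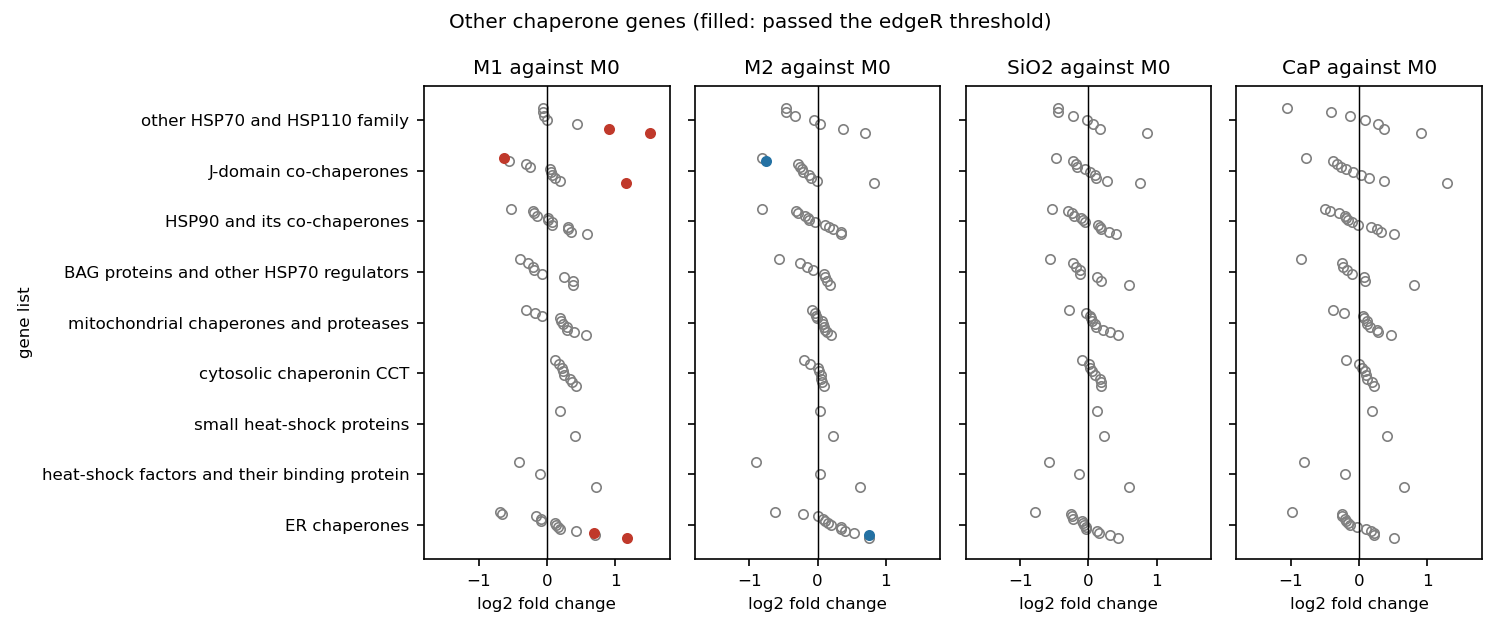
Log2 fold change against M0 of other chaperone genes, with 1 circle per tested gene (spread vertically within a list only for legibility), lists in rows and comparisons in columns. Filled circles passed the edgeR threshold, which were 4 genes outside the endoplasmic reticulum list in M1, 1 in M2 and 0 with SiO2 and CaP.

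The genes whose profile over the 15 libraries was closest to that of the summed *Hspa1a* and *Hspa1b* were *Gm7665*, *S100a11*, *Plekho2*, *Ehd4* and *Fam167b*. Their mean absolute difference from it, with both profiles centred on log2 CPM, was 0.314 to 0.351, where the profile itself has a mean absolute size of 0.56 and the median gene differed by 0.671. With a few counts per library behind the pair, this order is a description of these libraries.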

How the data were processed

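The authors made Smart-seq2 libraries, aligned and quantified the paired reads with STAR and Salmon in the nf-core/rnaseq pipeline on an Ensembl annotation (GRCm39 per the labels), and deposited the counts as a single table of integers by gene, not normalized. Salmon divides reads between near-identical genes, so such counts are estimates. All columns were used (0 left out), and 51487 of 78317 identifiers were matched to symbols from GENCODE vM21. Reference sequences are of GRCm38 and served only for names, lengths and letters. R 4.3.3, edgeR 4.0.16 and DESeq2 1.42.0 were used, with BLAST 2.17.0 for near copies (at least 95% identity over 200 bases), Python 3.11.15 and matplotlib 3.10.9.

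One edgeR quasi-likelihood model of 15 libraries (filterByExpr by group, TMM) tested 16654 genes with Benjamini-Hochberg adjustment, and a call needed an adjusted p under 0.05 with a log2 fold change beyond 0.5 in either direction. The 95% intervals of fold changes are normal intervals from the SE. The log2 CPM of single libraries used a prior count of 2. The 9 genes, the lists and the alternatives were chosen with earlier results of these data known. Named besides the 9 are list genes called in a comparison (at most 6 each) and the 5 genes most like the summed pair, and genes outside this rule (near copies, markers, *Hsp90ab1*, *Hspe1*, *Hspb1*, *Hspa5*, *Hspbp1*, *St13* and, in CaP, *Dnajb2*) were picked after their values were seen. Some genes of the lists are counted but not reported here by name. Alternatives were DESeq2, DESeq2's size factors, no filter, at least 10 counts in every library, a replicate block, fewer groups, the legacy quasi-likelihood, summed copies and leaving out each library in turn.

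Counts were simulated for M1 against M0 (16359 genes), with 100 genes changed at each size. The test recovered 13% of changes with a log2 size of 1 and 60% of those with a size of 2. In the data 2342 genes were called in M1, so the adjusted p of the simulation rests on far fewer changed genes. These shares are therefore not the power of the test for the genes described here or for M1 as sequenced. Rod wells had separately made rod batches and 1 cell passage, and nothing says that the other wells were separate cultures, so p-values cover the spread between wells, which may be technical. An exact two-sided permutation test of 3 against 3 cannot give a p below 0.1.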

Additional observations from a re-analysis of the deposited data

How the results depend on the processing

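No gene of the 9 was called by edgeR in M1, M2 or SiO2 under any alternative run, and DESeq2 called 1, *Dnajb1* in M2. Of the 63 other chaperone and ubiquitin genes, 1 to 5 were called in M1, 0 to 3 in M2 and 0 to 1 in CaP when 1 library was left out, the last without CaP replicate 1. DESeq2 called 2 of them in M2 and 1 in CaP. Without a filter on low counts there were 2 in M2 and 4 in CaP (among them *Dnajb2*, *Hspbp1* and *St13*). Values near 0 changed sign. For *Hspa8* in M2 the log2 fold change was -0.01 where each library had to hold 10 or more counts, and for *Hspd1* in M2 it was 0.01 without a filter and 0.01 with copies summed, an alternative chosen after seeing the data. Leaving out 1 library gave -0.12 to 0.10 for *Hspa8*, -0.18 to 0.20 for *Hsph1*, -0.17 to 0.17 for *Hspd1* and -0.20 to 0.28 for *Ubb* in M2, -0.05 to 0.13 for *Dnajb1* in M1, and -0.12 to 0.07 for *Hsph1*, -0.12 to 0.02 for *Hsp90aa1*, -0.05 to 0.28 for *Hspd1* and -0.01 to 0.50 for *Bag3* in SiO2. For the summed *Hspa1a* and *Hspa1b* it gave -0.92 to 0.78 in M1, -1.07 to 0.62 in M2 and -0.91 to 0.78 in SiO2, and the pair had no value under the minimum of 10 counts. The cause of these changes was not tested.

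The count of all genes called in M1, M2, SiO2, CaP and CaP against SiO2 was 2342, 687, 44, 109 and 3, and it was 2793, 995, 130, 461 and 17 with DESeq2, 3394, 1141, 205, 968 and 104 without a filter, 2246, 559, 34, 59 and 3 with the legacy quasi-likelihood, and 10, 68 and 4 for the last 3 in a model of the M0, CaP and SiO2 libraries. Higher calls were 71 of 109 in CaP and 210 of 461 with DESeq2. A replicate block gave 2121, 504, 19, 59 and 3, with 0 of the 9 genes called in M1, M2 and SiO2 and 3 of the 63 in M1, where *Dnajc7* was lost. Deviations of same-numbered libraries were correlated over 0.1 in 14 of 30 pairs and below -0.1 in 11 (-0.704 to 0.604). Of 15 libraries, 4 correlated best with a library of their own number. These values cannot settle whether some same-numbered wells shared a batch, which was not tested and which the labels do not state. Depth limited *Hspa1a* and *Hspa1b*, with 0 to 24 counts in a library.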
